A study of Homo sapiens with 4 samples.

Results

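HOXB13, FOXA1 and GATA2 encode transcription factors of the prostate lineage, and TMPRSS2 encodes a membrane serine protease that these factors and the androgen receptor regulate in prostate epithelium. These 4 genes were chosen by name, for their known roles, but with earlier results of these data known. All 4 were among the 17634 genes of the table and the 15781 genes tested. Their RNA was measured by RNA-seq in PC-3, an established human line from a prostate cancer metastasis that the study describes as lacking the androgen receptor. The paper describes the RRM2 cells as a stable line made by lentiviral infection and kept under puromycin selection. PC-3-EV carried the empty vector (n = 2 libraries), and PC-3-RRM2 carried a vector for RRM2, the small subunit of ribonucleotide reductase (n = 2 libraries). No time after infection was given. The comparison asks which RNAs differ between the PC-3-RRM2 and PC-3-EV cells. RRM2 level and group coincide, so an effect of RRM2 and any other difference between these cells cannot be told apart.

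FOXA1 is a forkhead protein and a pioneer factor, which binds its sites in closed chromatin and opens them to other factors. HOXB13 is the HOX protein that marks prostate epithelium through adult life, and it binds many enhancers together with FOXA1. GATA2 is a zinc-finger factor that works at the same enhancers and promotes androgen receptor expression. TMPRSS2 is a classical androgen target. Its promoter is fused to ERG in many prostate tumors, and its product, a type II transmembrane serine protease, cleaves other surface proteins and the spike protein of coronaviruses.

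The promoter windows of 2 of the 4 genes, FOXA1 and GATA2, were matched in RefSeq (GRCh38.p14), and they are shown because both lie inside the interval of a gene on the opposite strand that is described with them. Each window runs 5′ to 3′ on the strand of its gene, from 250 bases before the start to 50 after it. Capitals mark the motif matches.
FOXA1 promoter, chr14:37595200-37595499, minus strand: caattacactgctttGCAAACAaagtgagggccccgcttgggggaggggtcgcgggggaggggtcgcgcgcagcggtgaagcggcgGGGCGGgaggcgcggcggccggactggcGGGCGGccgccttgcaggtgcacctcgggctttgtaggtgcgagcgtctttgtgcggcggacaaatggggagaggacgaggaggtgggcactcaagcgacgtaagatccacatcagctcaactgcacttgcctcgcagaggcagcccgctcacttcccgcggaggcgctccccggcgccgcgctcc
GATA2 promoter, chr3:128493152-128493451, minus strand: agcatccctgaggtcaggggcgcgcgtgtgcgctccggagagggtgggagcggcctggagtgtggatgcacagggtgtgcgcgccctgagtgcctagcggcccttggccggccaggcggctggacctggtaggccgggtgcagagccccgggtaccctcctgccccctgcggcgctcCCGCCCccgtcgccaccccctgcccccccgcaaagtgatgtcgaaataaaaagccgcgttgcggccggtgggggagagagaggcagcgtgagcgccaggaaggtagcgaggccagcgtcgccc
The FOXA1 window was 69.3% G or C with 34 CpG pairs, and the GATA2 window was 72.3% with 29, against medians of 58.7% and 14 over all 35116 promoter windows. Motifs were searched on both strands. In the FOXA1 window, the forkhead motif TGTTTNC was found on the other strand from -235 to -229 relative to the start, and 18.0% of all windows held one. The GC box GGGCGG was found in the FOXA1 window from -164 to -159 and from -136 to -131. In the GATA2 window it lay on the other strand from -73 to -68, and 45.0% of all windows held one. A second GATA2 start, with its window at chr3:128488481-128488780, had the CCAAT box on the other strand from -83 to -79, as 34.6% of all windows did. The letters of the GATA motif AGATAA, the HOXB13 motif CAATAAA, the E2F motif TTTNNCGC and the TATA box TATAAA were in none of the 3 windows. They were in 10.3%, 4.004%, 6.89% and 11.5% of all windows. No motifs of this search overlapped each other in the windows shown.

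Estimated counts per library ran from 30149181 to 37801301. Levels below are in CPM, counts relative to library size after TMM adjustment, given as mean ± SD over 2 libraries. RRM2 itself stood at 21.8 and 20.8 CPM with the empty vector and at 96.6 and 98.8 CPM with the RRM2 vector, as labelled. Whether a group's libraries came from separate cultures is not in the labels, so p-values measure only a spread between libraries that may be technical. An exact permutation test of 2 against 2 libraries cannot go below p = 0.333, so differences were tested with edgeR's quasi-likelihood F-test across all genes. A gene was called at an adjusted p (Benjamini-Hochberg) below 0.05 and a fold change over 1.5, the study's thresholds. In bulk RNA, fewer cells with a gene on and less of its RNA per cell cannot be told apart.

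In PC-3-RRM2, HOXB13, FOXA1 and TMPRSS2 RNA were lower and GATA2 RNA was not called either way. HOXB13 and FOXA1 fell to about the same share of their level in PC-3-EV, 33.5% and 34.2%, and TMPRSS2 fell to 59.3%. Over all genes tested, 18.2% were called either way, 8.19% lower and 9.97% higher, so that 3 of 4 genes called lower is a count over a handful of genes beside that background.

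**Figure D1:**
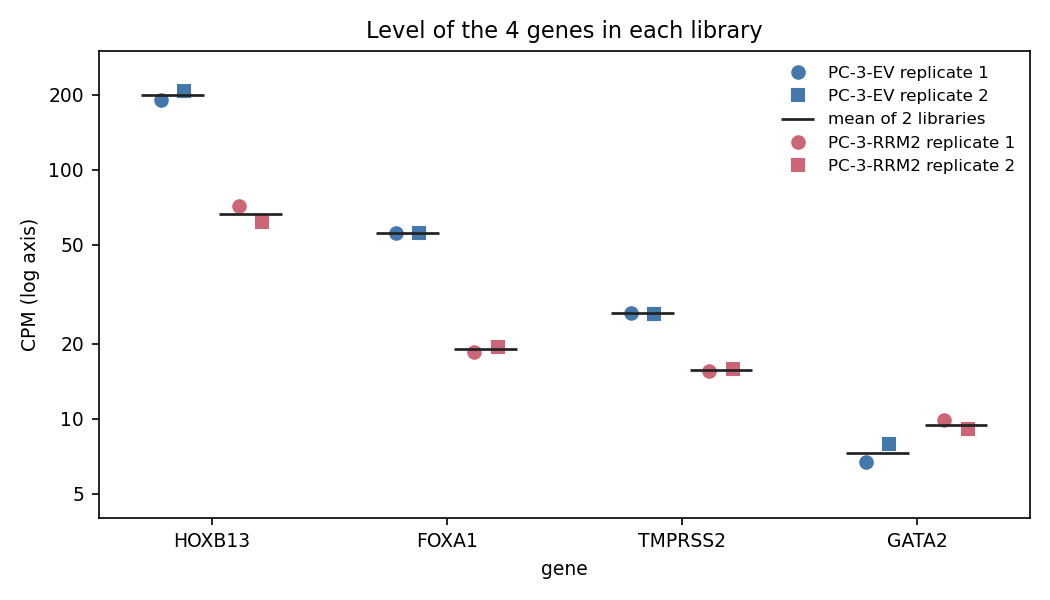
CPM (log axis) of HOXB13, FOXA1, TMPRSS2 and GATA2 in each of the 4 libraries, with PC-3-EV in blue and PC-3-RRM2 in red. Circles are replicate 1, squares replicate 2 and black lines the mean of 2 libraries. The HOXB13, FOXA1 and TMPRSS2 points of PC-3-RRM2 lie below those of PC-3-EV, and the GATA2 points lie above.

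HOXB13 (chromosome 17, 48724765 to 48728749, minus strand, GRCh38) has 2 exons in its single GENCODE transcript. The PC-3-EV libraries held 7226 and 6324 of its counts, against 2162 and 1877 for PC-3-RRM2. In CPM these were 191.0 and 206.8 against 71.2 and 61.9. Both PC-3-EV libraries were well above both PC-3-RRM2 libraries, and the groups did not overlap, which was true of 69.0% of all genes tested. Its mean level dropped from 198.9 ± 11.1 to 66.5 ± 6.58 CPM (SD over 2 libraries per group), a 2.99-fold fall (log2 fold change -1.58, SE 0.0918, 95% interval -1.79 to -1.37, edgeR adjusted p = 2.02e-05). By log2 fold change it was number 203 among the genes that were lower.

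FOXA1 (chromosome 14, 37589552 to 37595120, minus strand) had 2098 and 1703 counts with the empty vector, against 565 and 588 with RRM2. Its levels were 55.5 and 55.7 CPM against 18.6 and 19.4 CPM, so that libraries of a group lay close together and the groups far apart. The mean went from 55.6 ± 0.152 down to 19.0 ± 0.553 CPM (SD, 2 libraries each), a 2.93-fold fall (log2 fold change -1.55, SE 0.0902, 95% interval -1.76 to -1.34, edgeR adjusted p = 2.02e-05). FOXA1 was number 213 by log2 fold change among the genes that were lower, close to HOXB13.

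TMPRSS2 (chromosome 21, 41464551 to 41508158, minus strand, 11 GENCODE transcripts) was counted 1007 and 804 times in the PC-3-EV libraries, against 470 and 482 times in those of PC-3-RRM2. The levels were 26.6 and 26.3 CPM against 15.5 and 15.9 CPM, and the groups did not overlap. The mean went from 26.5 ± 0.237 down to 15.7 ± 0.294 CPM (SD, 2 libraries each), a 1.69-fold fall (log2 fold change -0.75, SE 0.101, 95% interval -0.99 to -0.52, edgeR adjusted p = 0.00109). It was number 1137 among the genes that were lower. The fall was close to the threshold: edgeR's glmTreat, which tests against a fold change of 1.5 in place of 1, gave an adjusted p of 0.171. The counts are per gene, so the transcripts of TMPRSS2 were not separated.

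GATA2 (chromosome 3, 128479422 to 128493187, minus strand) was the least abundant, with counts of 254 and 241 for PC-3-EV against 299 and 275 for PC-3-RRM2. Its levels were 6.72 and 7.88 CPM against 9.84 and 9.07 CPM. Both PC-3-RRM2 libraries were higher, but the gap between the groups (7.88 to 9.07 CPM) was about the size of the gap between the PC-3-EV libraries. Mean levels were 7.30 ± 0.823 and 9.46 ± 0.551 CPM (SD, 2 libraries each). The difference, 0.38 on the log2 scale (SE 0.147, 95% interval 0.037 to 0.72), did not pass the edgeR test (adjusted p = 0.0831).

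Under 12 other ways of fitting (scaling, filter, tool, left-out libraries and a replicate block), HOXB13 and FOXA1 were called lower in 12 of 12, TMPRSS2 in 11 of 12 and GATA2 in 0 of 12. The log2 fold change ran from -1.68 to -1.48 for HOXB13 and from -1.59 to -1.52 for FOXA1. It ran from -0.81 to -0.73 for TMPRSS2 and from 0.24 to 0.45 for GATA2. The HOXB13 and FOXA1 ranges overlap, and their order changed with the library left out.

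**Figure D2:**
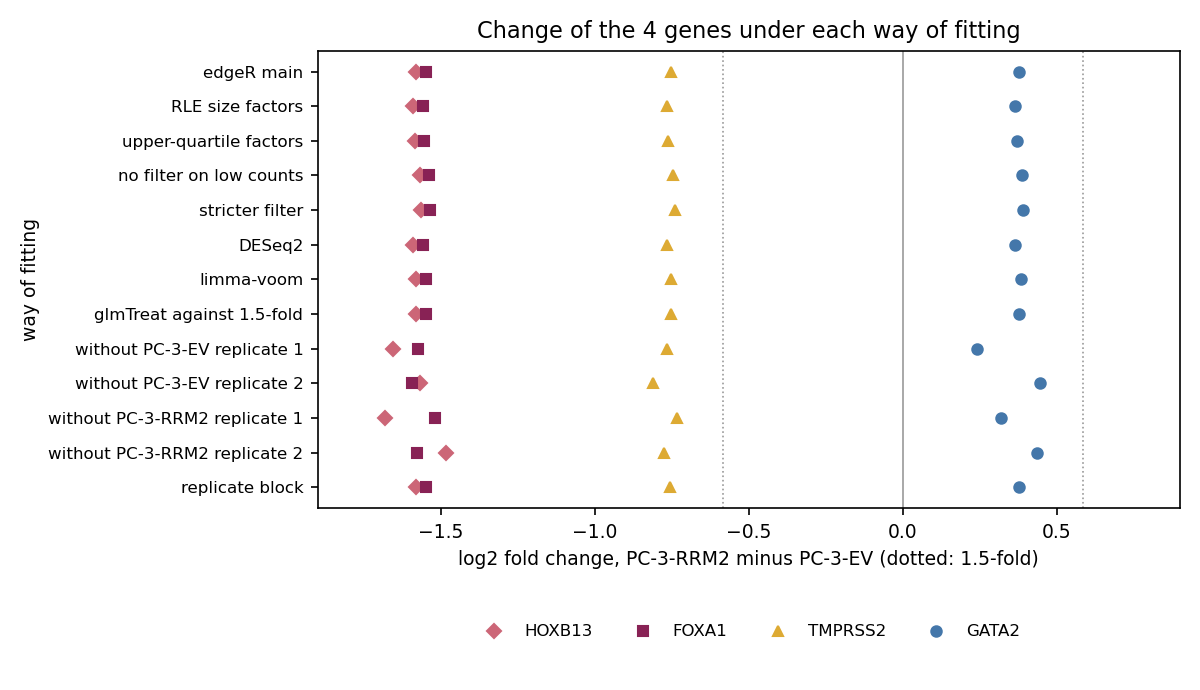
Log2 fold change of the 4 genes (PC-3-RRM2 minus PC-3-EV) in the main fit and 12 alternatives, 1 row each, with dotted lines at a fold change of 1.5. HOXB13 (diamonds) and FOXA1 (squares) stay between -1.68 and -1.48, TMPRSS2 (triangles) between -0.81 and -0.73, and GATA2 (circles) between 0.24 and 0.45.

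Levels of different genes were compared per kb of merged GENCODE 29 exons. In PC-3-EV, HOXB13 stood at 57.4 ± 3.21 CPM per kb, FOXA1 at 14.0 ± 0.0381, TMPRSS2 at 4.32 ± 0.0388 and GATA2 at 1.64 ± 0.185. Among all genes tested with a length, these levels were at percentiles 95.8, 78.3, 48.7 and 29.2. HOXB13 RNA was thus among the abundant RNAs of PC-3-EV, and GATA2 RNA was in the lower part of the range. In PC-3-RRM2 the levels were 19.2 ± 1.90, 4.77 ± 0.139, 2.56 ± 0.0480 and 2.12 ± 0.123 CPM per kb, at percentiles 84.1, 50.9, 36.5 and 33.0.

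The order HOXB13, FOXA1, TMPRSS2, GATA2 held in each of the 4 libraries, and neighbours in it differed by more than their spread in both groups. It was the same with the length of the longest transcript, which gave 57.4, 19.4, 8.17 and 2.17 CPM per kb in PC-3-EV against 19.2, 6.64, 4.84 and 2.81 in PC-3-RRM2. The distances between the genes narrowed, except for the first step. HOXB13 was 4.11 ± 0.219 times the per-kb level of FOXA1 in PC-3-EV against 4.03 ± 0.515 times in PC-3-RRM2. FOXA1 went from 3.23 ± 0.0377 to 1.86 ± 0.0193 times TMPRSS2. TMPRSS2 went from 2.66 ± 0.324 to 1.21 ± 0.0932 times GATA2, and HOXB13 from 35.2 ± 2.01 to 9.04 ± 0.369 times GATA2 (SD, n = 2 each). These ratios follow from the fold changes above and are no further test.

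HOXB13 lies at the end of the HOXB cluster, whose genes are ordered along the chromosome as they are used along the body axis. Of 22 tested genes within 500 kb of it, 0 were called higher and 4 lower, none of them adjacent. Over all genes tested, 8.19% were called lower. Both nearest genes, the prostate-associated PRAC2 (7 bp away, opposite strand) and PRAC1 (2245 bp away), differed little between the groups. PRAC1 was at 47.7 and 49.2 CPM with the empty vector, against 49.8 and 47.8 with RRM2 (log2 fold change 0.01, 95% interval -0.18 to 0.21). PRAC2 was at 12.4 and 13.8 CPM against 13.3 and 12.2 (log2 fold change -0.04, 95% interval -0.33 to 0.25). The groups overlapped for both genes, and both intervals lie far from the fall of HOXB13. On the other side, TTLL6 at 33482 bp had a log2 fold change of -0.20, which was not called.

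The next HOX gene, HOXB9, was at 143.8 ± 2.28 CPM against 158.9 ± 0.563 CPM in PC-3-RRM2 (log2 fold change 0.14, edgeR adjusted p = 0.140). Farther along the cluster, HOXB6 (-0.81) and HOXB5 (-0.62) were called lower, though HOXB5 was not called without PC-3-EV replicate 2 (-0.61) or without PC-3-RRM2 replicate 1 (-0.57). The other 2 were IGF2BP1, an RNA-binding protein gene 268663 bp away (-1.92), and PHOSPHO1, 494621 bp away (-1.46).

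FOXA1 has few neighbours: 4 genes within 500 kb, of which 0 were higher and 2 lower. TTC6 starts 79 bp from the FOXA1 interval on the opposite strand and runs away from it. Its counts were 204 and 201 with the empty vector, against 30 and 48 with RRM2, and the groups did not overlap. The mean went from 5.98 ± 0.833 down to 1.29 ± 0.420 CPM (log2 fold change -2.21, SE 0.245, edgeR adjusted p = 0.000480). The FOXA1 promoter window printed above lies wholly inside the TTC6 interval, which begins at base 37595199. In GENCODE 29 FOXA1 reaches to base 37596059, past that start. The strand setting of the counting is not given in the sources used here, so reads of FOXA1 and TTC6 in the shared stretch cannot be told apart. MIPOL1, 38293 bp to the other side, went from 53.2 ± 0.899 to 39.6 ± 5.04 CPM (log2 fold change -0.43, edgeR adjusted p = 0.0173). It was not called, as its fold change was below the fold threshold. SLC25A21-AS1, 415759 bp away, was called lower (-0.61).

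Around TMPRSS2, 9 genes were tested, of which 0 were called higher and 1 lower (C2CD2, log2 fold change -0.67). Rows of that region that spanned more than 2.5 Mb, 13 in all, joined a pair of places on the chromosome and were left out, a choice made after they were seen. The nearest tested gene on one side was the interferon-induced MX1 at 5337 bp (-0.28, edgeR adjusted p = 0.117), and on the other RIPK4 at 231211 bp (0.21, edgeR adjusted p = 0.166). ERG, the usual fusion partner of TMPRSS2, had 0 and 1 counts with the empty vector, against 10 and 9 with RRM2, too few to pass the filter. Around GATA2, 10 genes were tested and 0 were called. GATA2-AS1, which overlaps GATA2 by 3985 bp on the opposite strand and covers the GATA2 window printed above, was at 1.34 ± 0.503 CPM against 1.32 ± 0.234 CPM in PC-3-RRM2. Without a stated strand setting, reads in that overlap cannot be told apart.

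**Figure D3:**
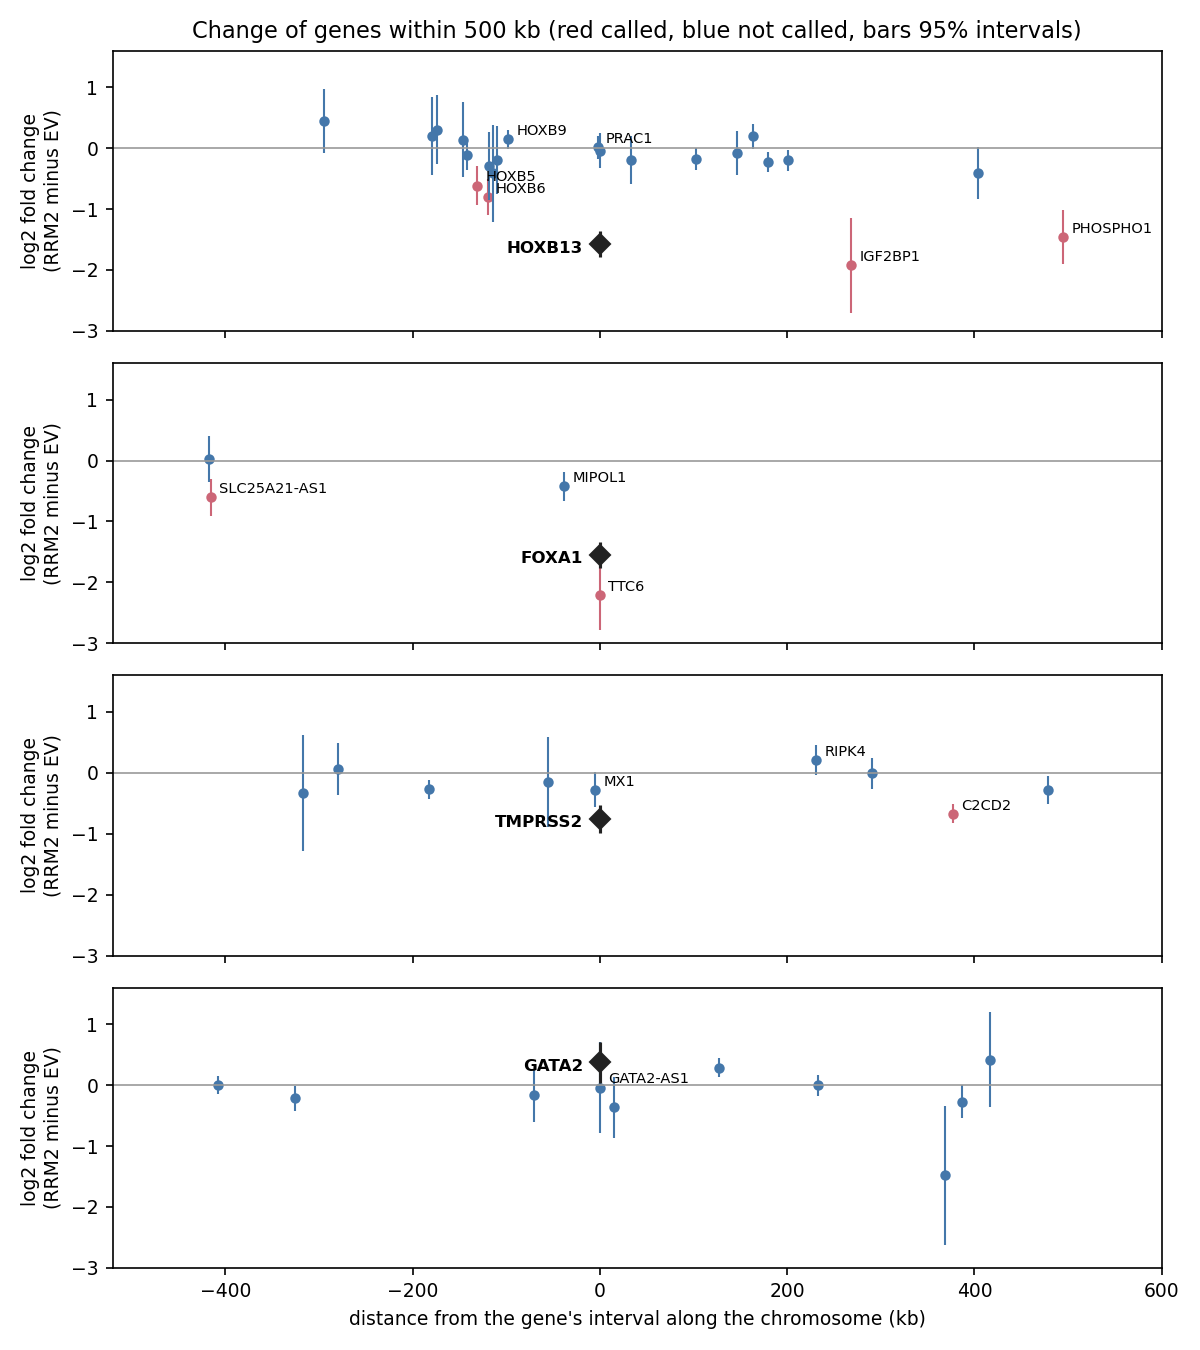
Log2 fold change (PC-3-RRM2 minus PC-3-EV) of tested genes within 500 kb of HOXB13, FOXA1, TMPRSS2 and GATA2, against distance in kb from the gene's interval. Points are fitted values, bars 95% intervals, red called and blue not called, with the gene itself as a black diamond. HOXB13 at -1.58 stands below PRAC1 at 0.01 and HOXB9 at 0.14, and TTC6 at -2.21 is low with FOXA1.

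Relatives of each gene were taken as lists by gene symbol or by known role, with the 4 genes left out of them. The count called in each list stands beside 18.2% over all genes tested, 9.97% higher and 8.19% lower. Of 22 other forkhead genes tested, 1 was called higher and 3 lower, 18.2% of the list. Their median log2 fold change was -0.01 against 0.00037 over all genes tested. FOXA2, the other pioneer factor of endoderm, was at 75.8 and 82.8 CPM with the empty vector, against 87.2 and 75.0 CPM with RRM2, and the groups overlapped (log2 fold change 0.03, edgeR adjusted p = 0.823). Per kb, FOXA2 was the highest forkhead RNA in both groups, at 30.5 ± 1.91 CPM per kb in PC-3-EV against 31.1 ± 3.32 in PC-3-RRM2. FOXA1 was in place 3 of 23 in PC-3-EV against place 9 in PC-3-RRM2. Place 9 is not settled, as FOXA1 stood at 4.77 ± 0.139 CPM per kb in PC-3-RRM2. FOXK1 (4.85 ± 0.455), FOXJ2 (4.69 ± 0.285) and FOXO3B (4.57 ± 0.572) were within the spread. The called forkhead genes were FOXL1 (-0.92), FOXP1 (-0.63), FOXD4 (-2.57) and FOXO6 (1.77). FOXP1 was not called without PC-3-EV replicate 1 (-0.57). FOXO6, with 3 and 6 against 16 and 12 counts, was not called with any library left out (1.196 to 2.44), by DESeq2 (adjusted p = 0.253) or with no filter (edgeR adjusted p = 0.0551). FOXO6 and FOXD4 passed the filter only through the group in which they were higher. FOXD4 shares sequence with near-identical copies, so its counts are uncertain.

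Of 32 other HOX genes tested, 0 were higher and 4 lower, 12.5% of the list, with a median log2 fold change of -0.20. The lower ones were HOXA13 (32.4 ± 1.45 to 16.6 ± 0.993 CPM, log2 fold change -0.97), which like HOXB13 belongs to the most posterior HOX group, HOXB6, HOXB5 and HOXD3 (-1.06). HOXD3 was not called without PC-3-EV replicate 1 (-0.95) or by DESeq2 (-1.07, adjusted p = 0.102). Per kb, HOXB13 was first of 32 HOX genes with a length in PC-3-EV, with HOXB9 at 55.7 ± 0.882 CPM per kb within its spread. In PC-3-RRM2 it was second, at 19.2 ± 1.90 CPM per kb against 61.6 ± 0.218 for HOXB9. Of 8 TALE genes, whose products bind DNA with HOX proteins, 0 were higher and 1 was lower, with a median of 0.14.

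Of 7 other GATA and FOG genes, 1 was higher and 0 lower, with a median of 0.04. GATAD1, a zinc-finger gene outside the DNA-binding GATA1 to GATA6 group, was the one called (52.3 ± 1.91 to 84.2 ± 3.69 CPM, log2 fold change 0.69). GATA6, an endodermal factor, was at 19.2 ± 0.655 and 23.9 ± 0.677 CPM and was not called, as its log2 fold change of 0.32 was below the fold threshold. GATA3, at 2.90 ± 0.331 and 3.39 ± 0.230 CPM, was not called. Per kb, GATA2 was between GATA6 and GATA3 in both groups.

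Of 10 other serine proteases tested, most of them membrane-bound, 5 were called higher and 1 lower. Of the 5, TMPRSS4, TMPRSS13, PRSS8 and PRSS22 passed the filter on low counts only through the PC-3-RRM2 libraries, and TMPRSS3, the lower one, only through the PC-3-EV libraries. These genes had to differ to be tested, so the count and a median over the list describe the filter as well. With a mean of at least 5 CPM required, 2 proteases were called. ST14, which encodes matriptase, a protease of epithelial surfaces, rose from 0.773 ± 0.0291 to 44.9 ± 10.8 CPM (log2 fold change 5.85). PRSS8, which encodes prostasin, a partner of matriptase, rose from 0.381 ± 0.202 to 20.2 ± 4.80 CPM (5.77), and PRSS22 from 0.0623 ± 0.0507 to 5.55 ± 1.93 CPM (6.47). TMPRSS13 had 0 counts with the empty vector against 203 with RRM2, and TMPRSS4 had 0 and 53. The exact 95% intervals of these ratios had lower limits of 61.5 for TMPRSS13 and 15.6 for TMPRSS4. These limits cover counting error only. TMPRSS3 was lower (log2 fold change -2.73). Per kb TMPRSS2 was first of 11 with the empty vector. With RRM2, TMPRSS2 was in place 3, behind ST14 at 10.3 ± 2.49 CPM per kb and PRSS8. Its order with PRSS22 is not settled, as TMPRSS2 at 2.56 ± 0.0480 CPM per kb was within the spread of PRSS22 at 2.33 ± 0.808.

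Inhibitors and substrates of these proteases were measured beside them. Of 11 tested, 5 were higher and 2 lower, with a median of 0.46. SPINT1, the inhibitor of matriptase, rose from 32.3 ± 0.170 to 87.4 ± 8.21 CPM (log2 fold change 1.44). PLAU (1.00), which encodes urokinase, was higher. SCNN1A (1.77), a subunit of the epithelial sodium channel, was higher as well, and the 2 genes lower were its partner subunits SCNN1B (-0.92) and SCNN1G (-0.72). SPINT2 was at 334.4 ± 8.89 and 347.4 ± 24.3 CPM and was not called (log2 fold change 0.06).

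**Figure D4:**
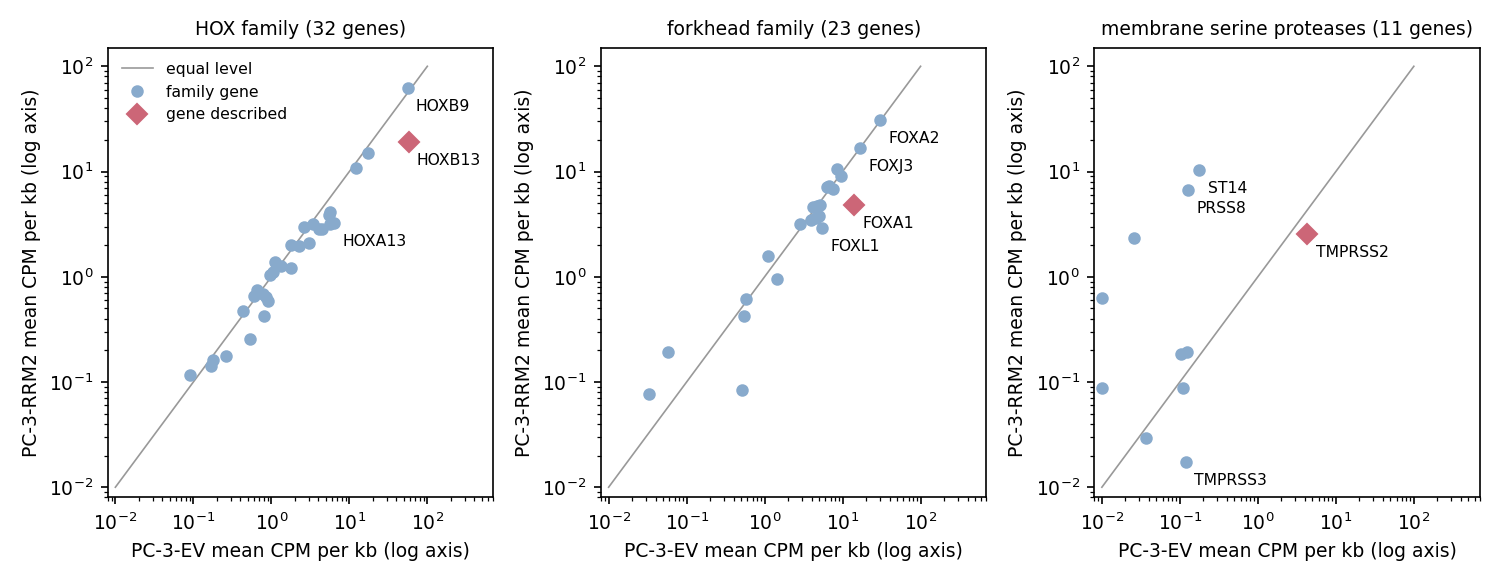
Mean CPM per kb in PC-3-EV (x) and PC-3-RRM2 (y), both log axes, for HOX genes, forkhead genes and listed serine proteases. Each point is 1 gene, and means under 0.01 are drawn at 0.01. The gray line marks equal levels. HOXB13 and FOXA1 lie under the line while HOXB9 and FOXA2 lie on it, and ST14 at 10.3 stands above TMPRSS2 at 2.56 in PC-3-RRM2.

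Coregulators that act with FOXA1 and HOXB13 (25 tested) had 0 called higher and 0 lower by edgeR, with a median log2 fold change of -0.14 and a range from -0.54 to 0.51. Of these, 11 had an unadjusted p below 0.05, and 7 had an edgeR adjusted p below 0.05. Those 7 were not called only because their fold changes, in either direction, were below the fold threshold. DESeq2 and limma-voom called 0. Leaving out PC-3-EV replicate 1 gave 2 calls, and leaving out PC-3-RRM2 replicate 1 or 2 gave 1. The coactivator NCOA3 was at 251.0 ± 4.53 and 285.2 ± 18.4 CPM, and TBL1XR1, a part of corepressor complexes, at 197.2 ± 0.690 and 205.7 ± 16.4 CPM. Neither was among the 7 genes with an edgeR adjusted p below 0.05.

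Other transcription factors of prostate epithelium went both ways: of 35 tested, 10 were higher and 8 lower, with a median of 0.08, and 3 of the 10 passed the filter only through PC-3-RRM2. GRHL2, a grainyhead factor of epithelial junction genes, rose from 0.381 ± 0.0157 to 19.8 ± 1.23 CPM (log2 fold change 5.69). EHF, an epithelial ETS factor, rose from 26.0 ± 1.36 to 130.1 ± 9.72 CPM (2.32). OVOL1, which represses mesenchymal genes, was one of those that passed the filter only through PC-3-RRM2. It had 3 counts with the empty vector against 225 with RRM2, a ratio of 84.5 (exact 95% interval 28.6 to 413). That interval covers counting error only. SOX9, a progenitor factor, fell from 133.9 ± 0.00806 to 62.7 ± 1.62 CPM (-1.10). The epithelial check moved beside these: EPCAM rose from 14.4 ± 0.00157 to 110 ± 9.49 CPM and CDH1, which encodes E-cadherin, from 22.7 ± 0.329 to 112 ± 4.74 CPM, while the keratins KRT8 and KRT18 were not called.

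Genes that mark luminal prostate cells or respond to androgen also went both ways: of 36 tested, 6 were higher and 4 lower, with a median of 0.11. STEAP4, a metalloreductase gene that passed the filter only through PC-3-RRM2, rose from 0.355 ± 0.0531 to 35.1 ± 3.06 CPM (log2 fold change 6.63), and CD24, a surface glycoprotein gene, was higher (1.25). NDRG1 (-0.97) and DPP4 (-1.54), also on this list, were lower. KLK3, which encodes prostate-specific antigen, was low, from 2.64 to 3.19 CPM over the 4 libraries, and its log2 fold change was 0.01. KLK2 and KLK4 were below 0.5 CPM in every library and did not pass the filter.

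Of 17 basal prostate genes, 7 were higher, 2 of them tested only through PC-3-RRM2, and 4 lower, with a median of 0.40. CDH3, which encodes P-cadherin, rose from 6.35 ± 0.124 to 55.1 ± 3.77 CPM (log2 fold change 3.12), and EGFR was higher (1.33), while KRT15 (-1.41) and ITGA6 (-0.88) were lower. Of 13 neuroendocrine genes, 3 were higher and 1 lower, with a median of 0.26. The higher ones were SCG5 (4.50), a secretory granule gene, the mitotic kinase AURKA (1.07) and BEX1. BEX1, tested only through PC-3-RRM2, had 0 counts against 99. The exact 95% interval of that ratio had a lower limit of 29.7, which covers counting error only. ENO2, a glycolytic enzyme gene used as a neuroendocrine marker, was lower (-0.88).

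FOXA1 and HOXB13 also work in the epithelium of gut and other endoderm, so a list of gastrointestinal lineage genes was read beside them. Of 16 tested, 0 were higher and 8 lower, with a median log2 fold change of -0.74. The trefoil factor genes TFF2 (65.0 ± 4.40 to 3.87 ± 0.0268 CPM, log2 fold change -4.07) and TFF1 (30.04 ± 0.154 to 3.53 ± 0.370 CPM, -3.09) were among them, with the gastric mucin MUC5AC (50.4 ± 0.735 to 10.9 ± 0.666 CPM, -2.21) and KRT20 (9.65 ± 0.00318 to 1.14 ± 0.0689 CPM, -3.08). The lower share in this list, 8 of 16, stood beside 8.19% over all genes tested. The list was chosen with earlier results of these data known, so that share is no test of it. Whether these genes are bound by FOXA1 or HOXB13 was not measured.

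**Figure D5:**
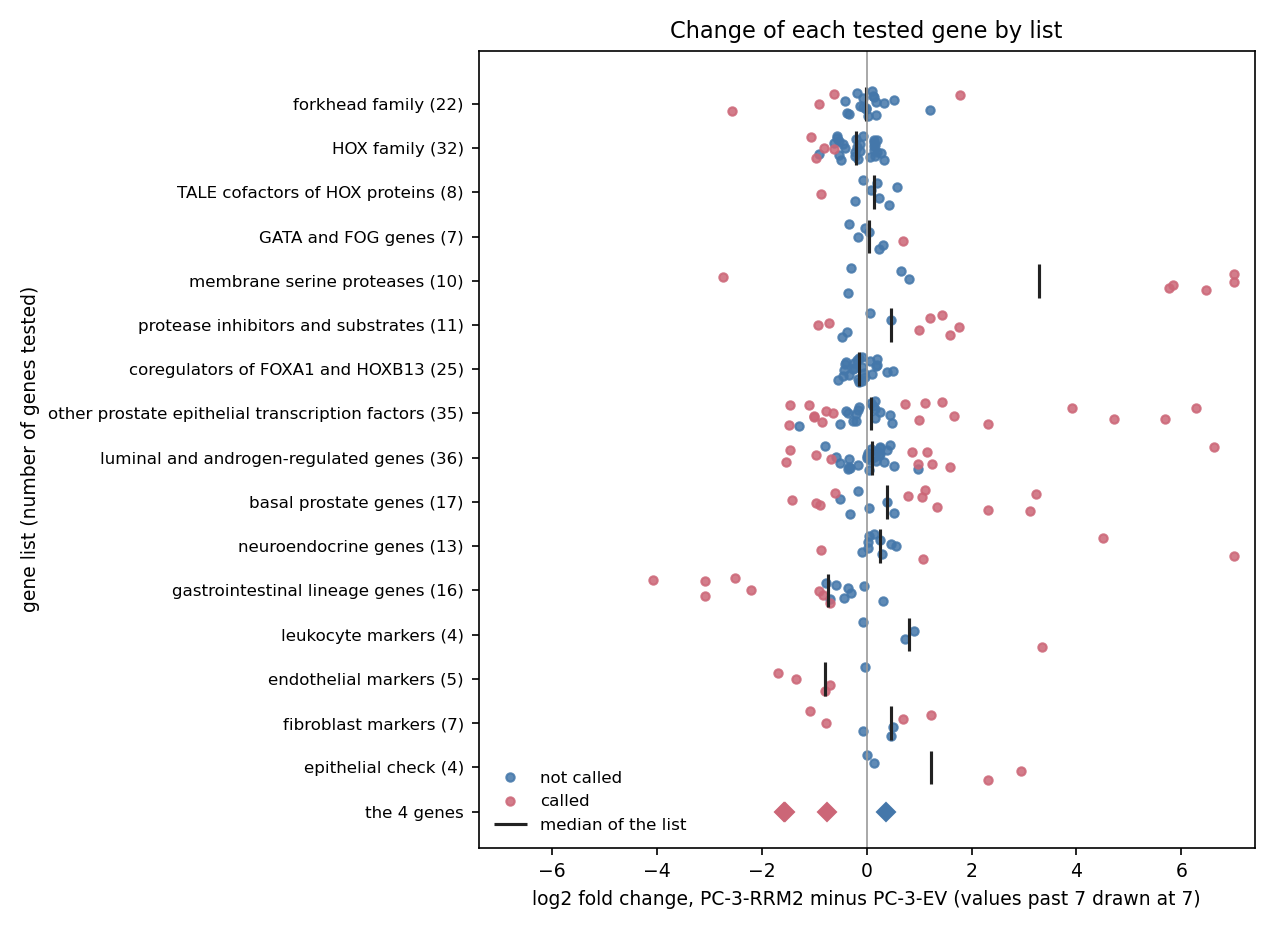
Log2 fold change (PC-3-RRM2 minus PC-3-EV) of each tested gene by list, 1 point a gene, red called and blue not called, with the list's median as a black line and the 4 genes as diamonds in the last row. Values past 7 are drawn at 7. Called gastrointestinal genes all lie to the left, and the 25 coregulators lie between -0.54 and 0.51.

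Markers of other cell types were read in the same libraries. The leukocyte list had 4 of its genes tested, with 1 higher (CSF1R, 3 counts against 29, not called by DESeq2 or without PC-3-EV replicate 2 or PC-3-RRM2 replicate 1), and PTPRC was at 0.29 to 0.59 CPM. PTPRC, CSF1R and ITGAM together were at 0.523 to 0.846 CPM with the empty vector, against 1.35 to 1.91 CPM with RRM2, and all 3 passed the filter only through the PC-3-RRM2 libraries. The list's summed level, 55.1 to 57.2 against 51.8 to 57.7 CPM, was almost wholly its remaining gene, a transcription factor gene that is also used outside blood cells. Of 5 endothelial genes, 4 were lower (PECAM1, KDR, ROBO4 and ESAM), and their summed level was 81.7 to 82.7 CPM against 39.4 to 39.8. ESAM was not called without PC-3-EV replicate 2 (-0.70), without PC-3-RRM2 replicate 2 (-0.66) or by DESeq2 (adjusted p = 0.0947). The defining endothelial genes VWF and CDH5 were at most 0.13 and 0.30 CPM, with CDH5 at 0 in PC-3-EV. Of 7 fibroblast genes, 2 were higher (LUM, FBLN1) and 2 lower (PDGFRA, COL3A1), at summed levels of 116.6 to 133.8 against 110.4 to 142.7 CPM. A single collagen gene made up 55.7 to 80.7 CPM of these sums, and the defining fibroblast gene DCN was at most 0.30 CPM. FBLN1 was not called without PC-3-RRM2 replicate 1 (0.57), and COL3A1 not without either PC-3-EV replicate, without PC-3-RRM2 replicate 2 or by DESeq2 (adjusted p = 0.143). The part of any of these in the fall of HOXB13, FOXA1 and TMPRSS2 was not tested.

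Genes with the pattern most like each of the 4 were taken as the 3 with the smallest root mean square difference of centred log2 CPM over the 4 libraries, among 11648 genes with a mean of at least 5 CPM. For HOXB13 these were PYGB, a glycogen phosphorylase gene (difference 0.031), KCNN4, a potassium channel gene (0.051), and ROBO4 (0.055), and 14 genes lay within 0.1. For FOXA1 they were the nucleotide receptor gene P2RY2 (0.024), B3GALT6 (0.043) and the amino acid transporter gene SLC7A8 (0.047), with 25 genes within 0.1. TMPRSS2 had PIGM, TNFRSF21 and the desmosomal cadherin gene DSC3, with 331 genes within 0.1. GATA2 had SHMT1, a folate enzyme gene, NDRG4 and the prostaglandin receptor gene PTGER4, with 464. With 4 libraries, a like pattern says little more than a like fold change.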

How the data were processed

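RNA-seq of total RNA was done by the study with paired 50-base reads, and the authors quantified them per gene in Partek Flow, per the submitters' processing notes. The deposited table held estimated counts that were not normalized, for 4 libraries. Not given in the sources used here are the Partek Flow version, aligner, annotation and strand setting. Estimated counts do not separate the RRM2 transgene from the cell's own RRM2. Whole numbers made up 56.0% to 57.7% of each library's values, and 23 gene symbols had been turned into dates and were not named.

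Counts were rounded, filtered with filterByExpr by group, scaled by TMM and tested with edgeR 4.0.16 in R 4.3.3 over all 15781 genes that passed. DESeq2 1.42.0 and limma 3.58.1 (limma-voom) were alternatives, as were RLE and upper-quartile scaling, no filter, a filter at a mean of 5 CPM, glmTreat, each library left out and a replicate block. With 1 library left in a group, that library was assumed to vary like the other group. The count test was checked on simulated data. Replicates of a group differed by more than sampling noise, with a chi-square per degree of freedom of 6.15 (PC-3-EV) and 15.9 (PC-3-RRM2), so none was a copy. Merged exon lengths came from GENCODE 29 and covered 95.4% of genes tested. End positions are 1 base less than the table's, which were 1 past the end. Promoter windows came from RefSeq GRCh38.p14.

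The 4 genes, the 16 lists and the rule for named genes were chosen with earlier results of these data known. The rule took the 4 genes, RRM2, up to 4 called genes per list with the smallest p (or, with none called, the 2 most abundant by mean CPM), the nearest tested gene on each side of each of the 4, and the 3 genes of most like pattern. FOXA2, HOXB9, PRAC1, GATA3, GATA6, SPINT2, SCNN1B, SCNN1G, TMPRSS3, TMPRSS4, ERG, KLK2, KLK3, KLK4, PTPRC, VWF, CDH5, KRT8, KRT18, ITGAM, DCN, GATA2-AS1 and the called genes within 500 kb were named after their values were seen. Some genes that the rule took are not reported here. Lists share up to 3 genes.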

Additional observations from a re-analysis of the deposited data

How the results depend on the processing

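HOXB13, FOXA1, GATA2 and RRM2 kept their direction and their side of the thresholds under every alternative, and TMPRSS2 kept its direction but was not called by glmTreat (log2 fold change -0.75). No direction reversed for any gene named by the rule. A mean of at least 5 CPM left fewer genes to test and called 922 higher and 717 lower, and glmTreat called 781 and 479, against 1574 and 1292. With that filter, called genes numbered 2 forkhead, 2 TALE, 2 protease, 7 basal, 0 leukocyte and 2 fibroblast genes. With glmTreat they numbered 2 forkhead, 1 HOX, 0 GATA and FOG, 5 gastrointestinal, 0 leukocyte, 2 endothelial and 2 fibroblast genes. With no filter 2 GATA and FOG genes were called, and with DESeq2 0 leukocyte genes. Leaving out 1 library in turn gave 1329 to 1642 genes higher and 1233 to 1687 lower, 2 to 3 forkhead, 1 to 2 TALE, 0 to 2 coregulator and 0 to 1 leukocyte genes. Apart from glmTreat and the filters, the cause of these shifts was not tested. Of the values of other named genes under the alternatives, 35 lost the call and 813 stayed on their side.

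The libraries share only a replicate number, and same-numbered libraries deviated from their group means in opposite directions (correlation across genes -0.269, and -0.652 among genes with a mean of at least 5 CPM). A replicate block gave log2 fold changes of -1.58 for HOXB13, -1.55 for FOXA1, -0.75 for TMPRSS2 and 0.38 for GATA2, changed none of these calls, and called 1628 genes higher and 1396 lower. A block with the numbers crossed, chosen after seeing the data, called 1722 higher and 1531 lower. With 2 libraries a group, the precision of each value rests on the spread that edgeR shares across genes. GATA2, at 241 to 299 counts a library, had the widest interval of the 4 genes.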
